A study of Sus scrofa with 12 samples.

Results

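The genes described here encode the carriers that move small peptides and amino acids across the absorptive cells of the jejunum, the middle segment of the small intestine. A list of 10 such genes was looked up in the deposited expression table, where loci that share a gene name were summed. By gene name, 7 of the 10 were found among 17049 names. These were SLC15A1, SLC6A19, SLC1A1, SLC1A5 and SLC7A9, whose proteins sit in the apical (brush border) membrane, and SLC7A7 and SLC7A8, whose proteins sit in the basolateral membrane. The other 3 names, apical SLC3A1 and basolateral SLC3A2 and SLC38A2, were absent as names but stood in the table under the Ensembl identifiers ENSSSCG00000008449, ENSSSCG00000022404 and ENSSSCG00000000808, which the pig annotation pairs with these symbols. SLC6A19, SLC1A5 and SLC3A1 are sums of 2 loci each. The 3 genes found by identifier are reported beside the 7, so that the 10 genes comprise 6 apical and 4 basolateral carriers.

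RNA of whole jejunal tissue was sequenced from 12 piglets in 4 groups of 3. W_Con piglets were sucking piglets of control sows (labelled weaning), taken at 21 days of age, and PW_Con piglets were weaned piglets of control sows, taken at 28 days of age. W_Res and PW_Res piglets had the same ages, and their sows received 300 mg/kg dietary resveratrol, a plant polyphenol, during pregnancy and lactation. The sample records describe Landrace semen, fostering of piglets between sows of the same diet and no change of pen at weaning, whereas the study's methods describe Yorkshire × Duroc litters with 1 male piglet taken per litter at each age. By those methods the sucking and weaned control piglets came from the same litters, and the records do not say which libraries share a litter. Weaned piglets were 7 days older than sucking piglets, so that weaning and age cannot be told apart. Each library was made from a different piglet as far as the records say, and p-values measure the spread between these libraries.

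Proteins in the gut lumen are cut to small peptides and free amino acids. SLC15A1 carries di- and tripeptides with protons into the cell, and cytosolic peptidases then split most of them. SLC6A19 takes up neutral amino acids with sodium, SLC1A1 takes up glutamate and aspartate, and SLC1A5 exchanges neutral amino acids such as glutamine. SLC7A9 is the light subunit and SLC3A1 the heavy subunit of a heterodimeric exchanger that brings in cystine and cationic amino acids against neutral ones. On the blood side, SLC3A2 is the heavy subunit shared by SLC7A7, which releases cationic amino acids in exchange for neutral amino acids and sodium, and SLC7A8, which exchanges neutral amino acids. SLC38A2 is a sodium-coupled carrier of small neutral amino acids.

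The values are FPKM (fragment numbers scaled to exon length and to the mapped fragments of the library), so that levels of different genes can be set side by side. The table holds no counts, so that the reads behind a value cannot be given. The study lists mapped reads for the W_Con and PW_Con libraries alone, and these numbers were not used in the comparisons. There, every PW_Con library had a smaller share of uniquely mapped reads and a larger share of multi-mapped reads than every W_Con library. The part of this in the control weaning comparison was not tested. Summed FPKM ranged from 313171 to 334469 per library, and the median correlation of a library with the others was 0.906 to 0.938 except for W_Res2, at 0.881. The villus enterocyte markers measured (7 of 10 listed, including VIL1, ANPEP and SI) were present in every library. Smooth muscle markers (5 of 6 listed) summed to 1174 FPKM in W_Res1 and 2657 FPKM in W_Res2, against 130 to 540 FPKM in the other 10 libraries, and villus markers summed to 2462 and 1564 FPKM in W_Res1 and W_Res2, against 3013 to 5116 FPKM elsewhere. FABP6, a bile acid binding protein of the distal small intestine, ranged from 1.70 to 24110 FPKM, and S100G, a calcium-binding protein of the proximal small intestine, from 33.6 to 2715 FPKM, with wide differences inside 3 of the 4 groups for FABP6. By the standard used for the carriers (an unadjusted P under 0.05 with a log2 difference above 1 or below -1), 5 of 5 smooth muscle markers were lower with weaning in resveratrol litters (DES by a log2 difference of -2.65, TAGLN by -2.16), where 4.75% of all genes met it, and 4 of 5 were higher with resveratrol in sucking piglets, where 4.47% did. In the same comparison 3 of 7 lymphocyte markers were lower (CD3D, CD3E and CD2). With weaning in control litters 2 of 6 proximal markers were lower, and 1 of 5 distal and 1 of 8 lymphocyte markers (CD79B) higher, where 3.31% of all genes met it. With resveratrol in weaned piglets 3 of 6 proximal markers were higher and 1 of 8 crypt markers (TOP2A) lower, where 1.81% of all genes met it. None of the 7 villus markers met it in these 4 comparisons. The marker levels differed between libraries of the same label, and their part in the carrier results was not tested. All libraries are labelled jejunum, and whether they came from the same position along it, which bears on every carrier level and on SLC1A1 beside FABP6, was not tested.

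**Figure D1:**
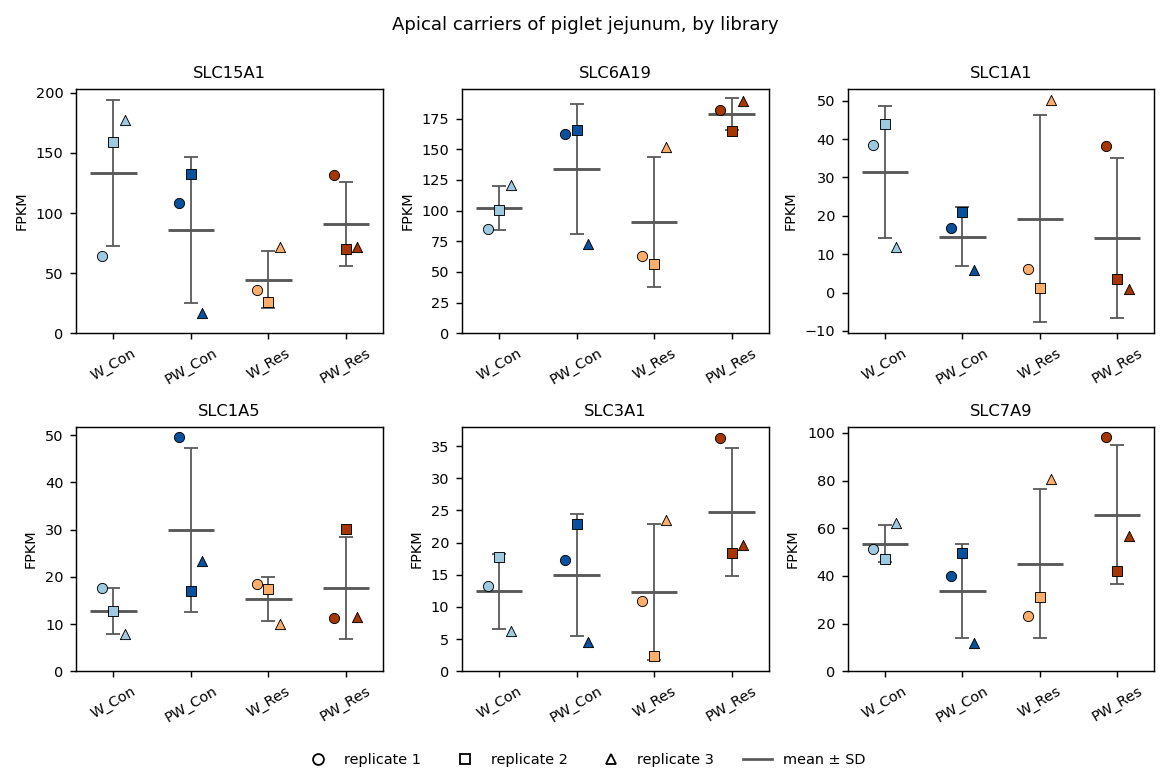
FPKM (linear axes from 0 except where an error bar passes below it) of the 6 apical carriers in each of the 12 libraries, by group. Points are libraries, with marker shape for the replicate number, and bars give mean ± SD of 3 libraries. SLC6A19 lay between 165 and 190 FPKM in PW_Res, while SLC1A1 ran from 1.05 to 38.3 FPKM in the same group.

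The peptide carrier SLC15A1 and the neutral amino acid carrier SLC6A19 were the most abundant of the 10 transcripts in W_Con, PW_Con and PW_Res. Mean SLC15A1 was 133 ± 60.9 FPKM in W_Con, 85.8 ± 61.0 in PW_Con, 44.5 ± 23.8 in W_Res and 91.0 ± 34.8 in PW_Res (SD, n = 3 each). Mean SLC6A19 was 102 ± 17.9, 134 ± 53.0, 90.7 ± 53.2 and 179 ± 12.9 FPKM in the same order. The ranges of these 2 genes overlapped in W_Con and PW_Con, and only in PW_Res did SLC6A19 lie above SLC15A1 in all libraries of a group without any overlap between these neighbours. SLC7A9 came next among the apical carriers in W_Con, PW_Con and PW_Res and lay just above SLC15A1 in W_Res, with group means of 33.7 to 65.7 FPKM, and SLC1A1, SLC1A5 and SLC3A1 had group means of 12.3 to 31.4 FPKM. In W_Con, SLC7A9 stood apart from both its neighbours in the order, SLC6A19 above and SLC3A2 below, whereas most other neighbours overlapped.

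Among the basolateral carriers, the heavy subunit SLC3A2 had the highest mean in every group, from 31.7 FPKM in W_Con to 52.6 FPKM in W_Res. SLC7A7 followed at 23.6 to 44.8 FPKM, with ranges that overlapped those of its neighbours. SLC38A2 was the lowest of the 10 genes in each group, at 4.38 ± 1.17 FPKM in W_Con, 1.12 ± 0.504 in PW_Con, 2.52 ± 1.29 in W_Res and 1.70 ± 0.506 in PW_Res (SD, n = 3 each). The 6 apical carriers made up 75.4% to 85.4% of the summed FPKM of the 10 genes in the 9 libraries of W_Con, PW_Con and PW_Res. In W_Res the apical share was 66.8%, 61.6% and 59.8%. The apical sum was low in W_Res1 and W_Res2 (158 and 135 FPKM, with 135 FPKM also in PW_Con3), while in W_Res3 the basolateral sum was high (261 FPKM, against 44.1 to 121 FPKM in the other 11 libraries).

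**Figure D2:**
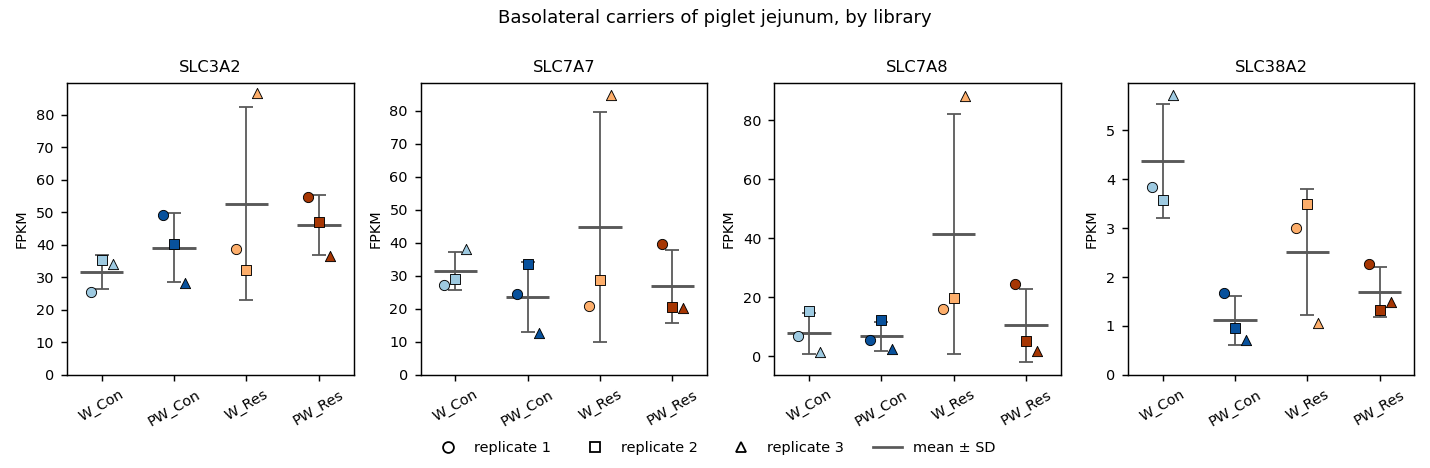
FPKM (linear axes) of the 4 basolateral carriers in each of the 12 libraries, by group, drawn like the apical carriers with mean ± SD of 3 libraries. The library W_Res3 had the highest SLC3A2, SLC7A7 and SLC7A8 of all libraries, at 86.7, 84.7 and 88.3 FPKM, and the lowest SLC38A2 of its group.

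Groups were compared on log2(FPKM + 1), a scale that understates the change of weakly expressed genes, with the same standard, which is that of the study. The 10 genes passed the low-expression filter in all 7 comparisons, which gave 70 tests. In limma, 9 of these passed the P limit alone, 7 met the standard and 0 had a Benjamini-Hochberg adjusted p under 0.05 over all genes tested, the lowest being 0.111. Of all genes, 17.7%, 13.3%, 13.3%, 10.2%, 19.0%, 12.3% and 13.7% had an unadjusted P under 0.05 in the 7 comparisons (both weaning comparisons, both resveratrol comparisons, weaning over both diets, resveratrol over both ages and the difference of the weaning effect between diets), and 0%, 0.00768%, 0%, 0.00808%, 0.0776%, 0.140% and 0% had such an adjusted p. A linear model of the kind Ballgown fits gave 1 of 70 by the unadjusted P and 0 by the adjusted p. Its library term was computed from FPKM, already scaled to mapped fragments, and is thus no measure of sequencing depth. Genes at 1 FPKM or more numbered 11418 to 12151 in W_Res and 10323 to 10907 in PW_Res. In W_Con they numbered 10573 to 11375, and in PW_Con 10884 to 10931. Whether the term follows such group differences, and its part in the calls lost in this model, was not tested. In weaned against sucking piglets of control litters, 2 of 10 carriers met the standard, 1 higher and 1 lower, where 3.31% of all 12611 genes did, 1.50% higher and 1.82% lower. In weaned against sucking piglets of resveratrol litters, 2 of 10 did so, both apical and both higher, where 4.75% of all genes did and 0.991% were higher. Resveratrol against control litters gave 2 of 10 in sucking piglets (1 apical lower, 1 basolateral higher), where 4.47% of all genes passed, 1.49% lower and 2.99% higher. In weaned piglets 0 of 10 passed in limma, also by the P limit alone or in the Ballgown-type model, where 1.81% of all genes passed and 17.3% had groups that did not overlap.

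The median log2 difference of the 10 carriers was -0.25 in control litters at weaning, against -0.02 over all genes, and 0.01 in resveratrol litters, against -0.16. Neither sign held throughout, with 0.22 in control litters without PW_Con3, and with -0.08 in resveratrol litters without PW_Res2 and -0.33 in the Ballgown-type model. At weaning in control litters the medians were -0.38 for the apical and -0.25 for the basolateral carriers, and without PW_Con3 they were 0.33 and 0.17. In resveratrol litters the medians of the 2 membranes differed in sign, with 0.87 for the 6 apical and -0.43 for the 4 basolateral carriers. With 1 library left out they ranged from 0.51 to 1.32 and from -0.65 to -0.30 (without W_Res2 and W_Res3 for the apical, PW_Res1 and PW_Res2 for the basolateral carriers), and in the Ballgown-type model they were 0.10 and -0.71. For resveratrol in sucking piglets the medians were -0.38 (apical) and 0.42 (basolateral), against 0.09 over all genes. Without W_Res3 the basolateral median was -0.07 and that of the apical carriers -0.96, so that the opposite sign of the membranes rests on this library. With median-of-ratios rescaling the medians were 1.09 and -0.24 at weaning and -0.48 and 0.32 for resveratrol. These 2 comparisons share the W_Res libraries. In weaned piglets the medians of both membranes were above 0, at 0.49 and 0.23, against -0.07 over all genes, and without PW_Con3 both were below 0, at -0.17 and -0.07. In the Ballgown-type model the apical and basolateral medians for resveratrol were 1.24 and 0.78 in weaned piglets, and -0.19 and 0.95 in sucking piglets. Rescaling the libraries by the median of ratios moved the median of all genes from -0.16 to 0.01 for weaning in resveratrol litters, from -0.10 to -0.01 for weaning over both diets and from -0.15 to 0.00348 for the difference of the weaning effect between diets, and differences in these comparisons are read relative to that shift.

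**Figure D3:**
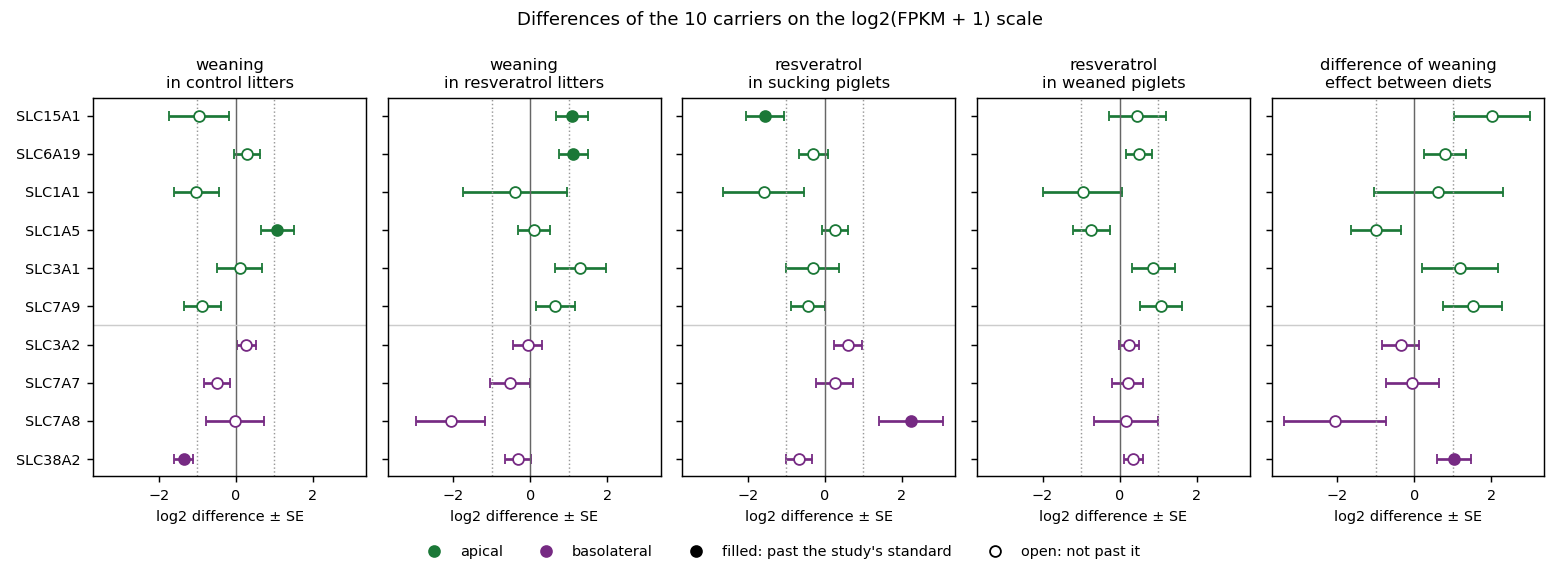
Differences of the 10 carriers between groups on the log2(FPKM + 1) scale, with the standard error from limma, for 4 comparisons of 3 against 3 libraries and for the difference of the weaning effect between diets. Apical carriers stand above the grey line and basolateral carriers below it, filled points met the standard of the study, and dotted lines mark log2 differences of -1 and 1. In the second panel 5 of 6 apical carriers lie above 0 and the 4 basolateral carriers below it, but SLC1A1, SLC1A5, SLC3A1, SLC3A2, SLC7A7 and SLC38A2 change sign in this panel under at least 1 other setting or with a library left out.

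SLC15A1 levels were 63.9, 159 and 177 FPKM in W_Con, 108, 133 and 16.8 in PW_Con, 36.0, 26.1 and 71.4 in W_Res and 131, 70.1 and 71.6 in PW_Res. The W_Res libraries were the lowest group, with W_Res3 just above W_Con1, and PW_Con3 was the lowest library of all. In sucking piglets, SLC15A1 was lower with resveratrol by a log2 difference of -1.56 (SE 0.49, P = 0.0133, adjusted p = 0.344), although the groups overlapped (two-sided exact permutation p = 0.2, where 0.1 is the smallest that 3 against 3 libraries can give). The call held without each library in turn (-2.02 to -1.25), and it ended in the Ballgown-type model, at -0.58. Villus markers summed to 2462, 1564 and 5116 FPKM in W_Res against 3725 to 4986 in W_Con, 1 of 7 of them was lower at an unadjusted P under 0.05, and 4 of 5 smooth muscle markers were higher past the standard. Their part in the SLC15A1 difference was not tested, and in whole tissue fewer enterocytes and less RNA per enterocyte cannot be told apart.

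Between sucking and weaned piglets of resveratrol litters, SLC15A1 was higher after weaning by 1.08 (SE 0.41, adjusted p = 0.35), with overlapping groups, and by 1.3 after rescaling. Without W_Res1, W_Res2 or PW_Res1 the difference was 0.99, 0.77 and 0.78 and no longer met the standard, nor did it in the Ballgown-type model (0.61), with quantile normalization (0.99) or in a fit of all 12 libraries (1.08). All 5 smooth muscle markers were lower past the standard in the same comparison, with sums of 540 to 2657 FPKM in W_Res and 173 to 498 FPKM in PW_Res, and the part of this in the SLC15A1 difference was not tested. In control litters the weaned-minus-sucking difference of SLC15A1 was -0.94 (SE 0.78, adjusted p = 0.577), and without PW_Con3 it was -0.02. The difference between the 2 weaning effects was 2.02 (SE 0.98, adjusted p = 0.387), just outside the standard, and it was 2.41 to 2.55 and inside it without W_Con1, W_Res3, PW_Con1 or PW_Con2. In weaned piglets SLC15A1 differed by 0.46 with resveratrol (SE 0.74, adjusted p = 0.856), a value that turned to -0.46 without PW_Con3.

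SLC6A19 levels were 85.1, 101 and 121 FPKM in W_Con, 163, 166 and 72.6 in PW_Con, 63.2, 56.9 and 152 in W_Res and 182, 165 and 190 in PW_Res. All 3 PW_Res libraries lay above all 3 W_Res libraries, with W_Res3 close to them, whereas PW_Con was split by its low library PW_Con3. In resveratrol litters SLC6A19 was higher after weaning by 1.11 (SE 0.38, P = 0.0201, adjusted p = 0.340, two-sided exact permutation p = 0.1), and by 1.34 after rescaling. It was the 1 carrier of 10 whose groups did not overlap there, where 21.8% of all genes did not and 3.93% were higher without overlap. Without W_Res1, W_Res2 or PW_Res3 the difference was 0.93, 0.86 and 1.07 and missed the standard, and in the Ballgown-type model it was 0.23. In control litters the difference was 0.30 (SE 0.34, adjusted p = 0.687). Over both diets it was 0.71 (SE 0.27, adjusted p = 0.214), short of the fold limit of the standard, where 1.42% of all genes and 0 of the 10 carriers met both criteria. Leaving out 1 library brought SLC38A2 (-1.01 without W_Res3) and SLC7A8 (-1.49 without PW_Res1) past it. The 2 weaning effects on SLC6A19 differed by 0.81 (SE 0.55, adjusted p = 0.524), or by 1.25 and past the standard without W_Res3.

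Without W_Res2, the library least like the others, the number of carriers past the standard at weaning in resveratrol litters went from 2 to 0, while all genes past it went from 618 to 388 (3.06%). The 2 calls for resveratrol in sucking piglets, SLC15A1 at -1.25 and SLC7A8 at 2.54, were made without it too.

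The glutamate carrier SLC1A1 varied widely inside groups, with SDs of 7.68 to 26.9 FPKM around group means of 14.3 to 31.4 FPKM. Its levels were 38.4, 44.0 and 11.8 FPKM in W_Con, 16.7, 20.9 and 6.0 in PW_Con, 6.23, 1.24 and 50.2 in W_Res and 38.3, 3.54 and 1.05 in PW_Res. In W_Res the highest library held 40.6 times the lowest, and in PW_Res 36.4 times. No comparison of SLC1A1 met the standard, with log2 differences of -1.02 for weaning in control litters (SE 0.59, adjusted p = 0.411), -0.39 in resveratrol litters (SE 1.35, adjusted p = 0.917), -1.59 for resveratrol in sucking piglets (SE 1.06, adjusted p = 0.523) and -0.96 in weaned piglets (SE 1.03, adjusted p = 0.769). With the replicate number as a block, the value for weaning in control litters met the standard. Leaving out 1 library brought 3 of these values past the standard. Without W_Con3 the weaning difference in control litters was -1.59, without W_Res3 the difference in sucking piglets was -2.82 and without PW_Res1 that in weaned piglets was -2.19. The SLC1A1 value for weaning in resveratrol litters turned to 0.83 without W_Res3 and to 0.51 without PW_Res3. In weaned piglets the value for resveratrol turned sign in the Ballgown-type model.

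FABP6 was at 9.10 FPKM in W_Con3, 128 in W_Res1, 12.2 in W_Res2, 1.70 in PW_Res2 and 4.81 in PW_Res3, and SLC1A1 was between 1.05 and 11.8 FPKM in these 5 libraries. FABP6 was at 1231 to 24110 FPKM in the other 7, where SLC1A1 was between 6.0 and 50.2 FPKM, the low value being that of PW_Con3. The panels of SLC1A1, FABP6 and S100G by library show these values side by side, and S100G was highest in W_Con3, W_Res2 and PW_Res3, at 2715, 1195 and 972 FPKM. Over the 12 libraries, the 3 named genes most like SLC1A1 among 6302 genes with a mean of at least 5 FPKM were TMEM189 (Pearson's r = 0.951), ASS1, an enzyme of arginine synthesis (0.944), and MEP1B, a brush border metalloprotease (0.914). ASS1 was at 30.9 to 200 FPKM in those 5 libraries and at 173 to 552 FPKM in the other 7. Correlations of this kind describe libraries that also share tissue makeup and depth.

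**Figure D4:**
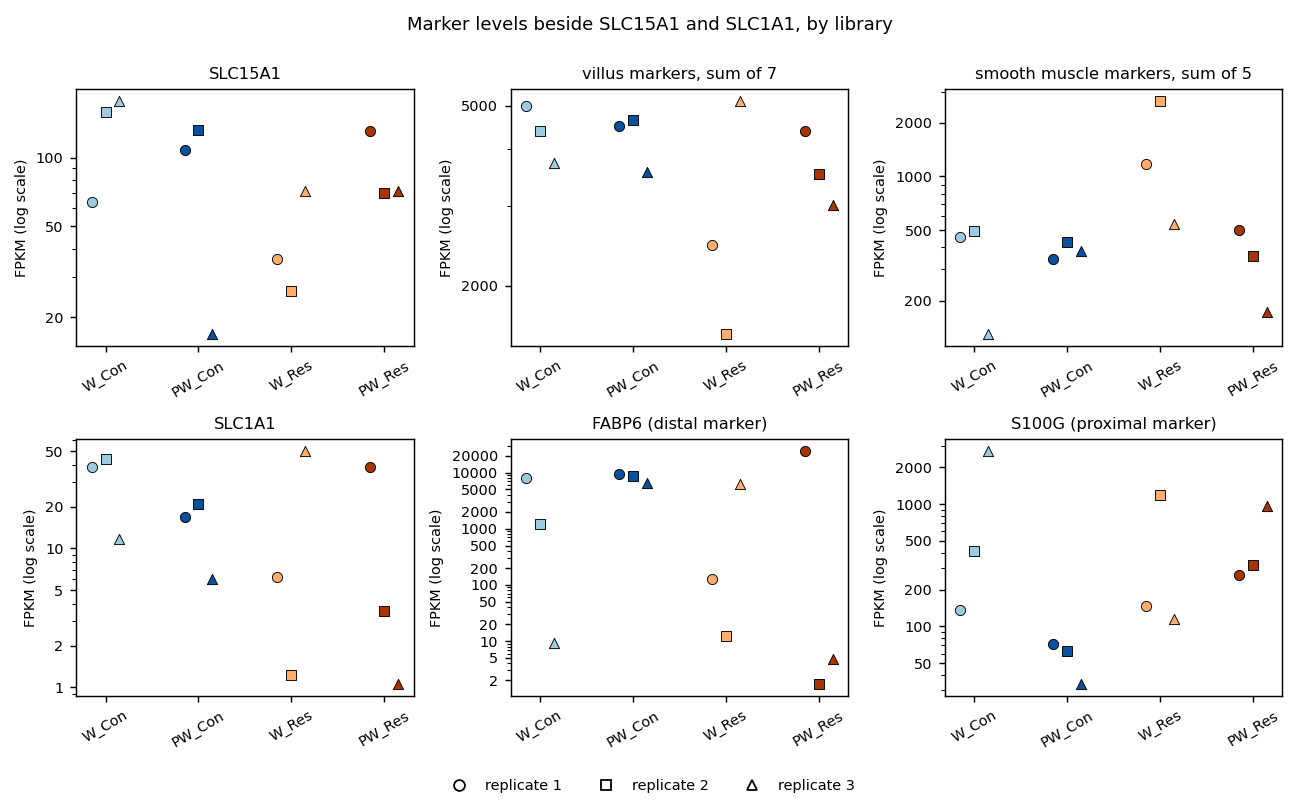
Marker levels beside SLC15A1 and SLC1A1 by library, in FPKM on log axes, with marker shape for the replicate number. The upper row shows SLC15A1, the sum of 7 villus markers and the sum of 5 smooth muscle markers, where W_Res1 and W_Res2 have the lowest villus and highest smooth muscle sums. The lower row shows SLC1A1, FABP6 and S100G, where FABP6 spans 1.70 to 24110 FPKM.

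SLC1A5, the glutamine exchanger, stood at 17.7, 12.9 and 7.97 FPKM in W_Con, 49.6, 16.9 and 23.3 in PW_Con, 18.6, 17.4 and 9.98 in W_Res and 11.3, 30.2 and 11.6 in PW_Res. PW_Con1 was the highest library by far, and W_Con1 lay above PW_Con2, so that these groups overlapped. In control litters SLC1A5 was higher after weaning by 1.08 (SE 0.43, P = 0.0374, adjusted p = 0.255, two-sided exact permutation p = 0.2). The study, which used the same control libraries, also counts SLC1A5 among its changed genes. Its qRT-PCR of SLC1A5 gave an increase that was not significant and that it calls a trend. Without PW_Con1 the difference was 0.65, and it also missed the standard without W_Con2 (1.11), W_Con3 (0.80) or PW_Con3 (1.18) and in the Ballgown-type model (1.23). In resveratrol litters the difference was 0.09 (SE 0.41, adjusted p = 0.934), and it turned to -0.17 without W_Res3, to -0.35 without PW_Res2 and to -0.04 in the Ballgown-type model. The effects in the 2 diets differed by -0.99 (SE 0.65, adjusted p = 0.514), or by -1.43 without PW_Res2. With resveratrol SLC1A5 differed by 0.25 in sucking piglets (SE 0.34, adjusted p = 0.76) and by -0.73 in weaned piglets (SE 0.49, adjusted p = 0.62), the second being -1.18 without PW_Res2. The gene most like SLC1A5 was GARS, glycyl-tRNA synthetase (r = 0.871, 12 libraries).

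The 2 subunits of the apical cystine exchanger met the standard in no comparison. SLC7A9, the light subunit, was at 51.4, 47.1 and 62.2 FPKM in W_Con, 39.9, 49.4 and 11.7 in PW_Con, 23.0, 31.3 and 80.8 in W_Res and 98.2, 42.3 and 56.6 in PW_Res. W_Con was its least variable group, with a coefficient of variation of 14.5%, against 44.2% to 69.3% in the others. Its log2 differences were -0.87 (SE 0.49, adjusted p = 0.397) for weaning in control litters and 0.65 (SE 0.50, adjusted p = 0.589) in resveratrol litters, and -0.44 (SE 0.43, adjusted p = 0.663) and 1.08 (SE 0.55, adjusted p = 0.541) for resveratrol in sucking and weaned piglets. The 2 weaning effects differed by 1.52 (SE 0.77, adjusted p = 0.401). Each of these values except that in sucking piglets passed the standard when 1 library was left out, at -1.25 without PW_Con2 (control litters), 1.17 without W_Res3 (resveratrol litters), 1.46 without PW_Con2 (weaned piglets) and, for the difference of the effects, 2.04 without W_Res3 and 1.90 without PW_Con2.

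SLC3A1, the heavy subunit, was at 13.3, 17.7 and 6.25 FPKM in W_Con, 17.3, 23.0 and 4.48 in PW_Con, 11, 2.44 and 23.5 in W_Res and 36.3, 18.4 and 19.6 in PW_Res. The low libraries W_Con3, PW_Con3 and W_Res2 were in 3 different groups. Its largest difference was 1.29 for weaning in resveratrol litters (SE 0.67, adjusted p = 0.433), which was 1.94 without W_Res3 and -0.65 in the Ballgown-type model, and the other pairwise differences ranged from -0.32 to 0.88. SLC7A9 transcript exceeded SLC3A1 transcript in all 12 libraries, by 2.10 to 3.86 times in 10 of them and by 9.95 and 12.9 times in W_Con3 and W_Res2.

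Across the 12 libraries SLC7A9 followed SLC3A1 with Pearson's r = 0.664 (permutation p = 0.0192, 0.0256 after Benjamini-Hochberg adjustment over 3 subunit pairs) and Spearman's rho = 0.685 (permutation p = 0.017, adjusted 0.0511). After removal of the group means r was 0.695. Without W_Res2 and PW_Con3, the 2 libraries farthest from the median of SLC3A1, r was 0.468 (permutation p = 0.167). Leaving out such libraries also narrows the range of SLC3A1, so that this value cannot say how far the relation rests on them. On the basolateral side SLC3A2 gave r = 0.689 with SLC7A7 (permutation p = 0.0197, adjusted 0.0256) and r = 0.638 with SLC7A8 (permutation p = 0.0256, adjusted 0.0256), with rho = 0.392 (p = 0.21 by permutation) and 0.427 (p = 0.17 by permutation). After removal of the group means r was 0.847 and 0.641. Without W_Con1 and W_Res3, r was 0.404 (permutation p = 0.245) with SLC7A7 and 0.351 (permutation p = 0.315) with SLC7A8, with the same limit for the range of SLC3A2. Carriers that are not partners reached higher values, with r = 0.793 for SLC6A19 with SLC3A1, 0.773 for SLC15A1 with SLC7A9 and 0.767 for SLC7A9 with SLC7A7. Others were lower, down to -0.549 for SLC1A5 with SLC7A7. The relation is thus not particular to subunit partners. The permutations shuffled all 12 libraries without regard to group. The subunits share tissue makeup and depth within each library.

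**Figure D5:**
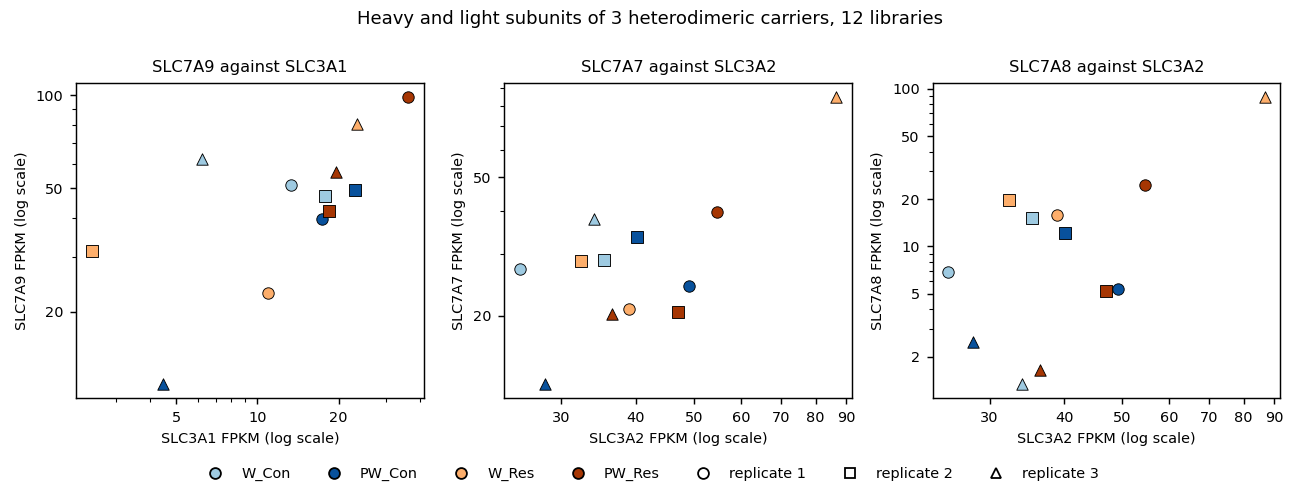
Light subunit against heavy subunit in FPKM on log axes, for SLC7A9 with SLC3A1, SLC7A7 with SLC3A2 and SLC7A8 with SLC3A2. Each point is 1 of 12 libraries, with colour for the group and shape for the replicate number. W_Res3 stands alone at the upper right of both SLC3A2 panels.

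SLC7A8 was the most variable carrier, from 1.35 to 88.3 FPKM, a range of 65.5 times. Its levels were 6.90, 15.2 and 1.35 FPKM in W_Con, 5.38, 12.2 and 2.46 in PW_Con, 15.9, 19.8 and 88.3 in W_Res and 24.5, 5.19 and 1.66 in PW_Res. All 3 W_Res libraries lay above all 3 W_Con libraries, although W_Res1 and W_Con2 were close. In sucking piglets SLC7A8 was higher with resveratrol by 2.24 (SE 0.82, P = 0.0277, adjusted p = 0.354, two-sided exact permutation p = 0.1). It and SLC38A2 were the 2 of 10 carriers whose groups did not overlap in this comparison, where 21.0% of all genes did not, 13.8% higher and 7.18% lower. The difference missed the standard without W_Con3 (1.48) or W_Res3 (1.49), in the Ballgown-type model (1.94) and with the replicate number as a block (2.24). Summed smooth muscle markers were at 1174, 2657 and 540 FPKM in W_Res1, W_Res2 and W_Res3, all above the W_Con libraries at 455, 495 and 130, and their part in the SLC7A8 difference was not tested.

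With weaning in resveratrol litters SLC7A8 differed by -2.08 (SE 0.90, adjusted p = 0.379), which passed the standard without W_Res1 (-2.52), without PW_Res1 (-2.96) and in a fit of all 12 libraries. In control litters the difference was -0.01 (SE 0.75, adjusted p = 0.994), with a sign that flipped under rescaling and a pseudocount of 0.1, and in weaned piglets resveratrol gave 0.18 (SE 0.83, adjusted p = 0.958). The 2 weaning effects differed by -2.06 (SE 1.32, adjusted p = 0.5), and by -2.95 without PW_Res1. RGL1 was the gene most like SLC7A8 (r = 0.959), followed by CYP2W1 (0.915), which had its highest level, 31.0 FPKM, in W_Res3 as well. SLC7A7 and SLC7A8 lie on the same chromosome with 15 protein-coding genes between them in the RefSeq annotation of Sscrofa11.1, a newer build than that of the files.

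SLC7A7 was at 27.3, 29.0 and 38.0 FPKM in W_Con, 24.4, 33.7 and 12.8 in PW_Con, 20.9, 28.8 and 84.7 in W_Res and 39.6, 20.6 and 20.2 in PW_Res. Apart from the high library W_Res3 and the low library PW_Con3, all values lay between 20.2 and 39.6 FPKM. Its log2 differences were -0.48 (SE 0.34, adjusted p = 0.504) and -0.53 (SE 0.52, adjusted p = 0.672) for weaning in control and resveratrol litters, and 0.25 (SE 0.48, adjusted p = 0.834) and 0.21 (SE 0.40, adjusted p = 0.885) for resveratrol in sucking and weaned piglets. Without W_Res3 the third of these turned to -0.33 and the second to 0.05. The difference of the weaning effects, -0.05 (SE 0.68, adjusted p = 0.982), changed sign with rescaling (0.15).

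SLC3A2, the shared heavy subunit, was at 25.6, 35.4 and 34.0 FPKM in W_Con, 49.2, 40.2 and 28.1 in PW_Con, 38.9, 32.3 and 86.7 in W_Res and 54.8, 47.1 and 36.5 in PW_Res. It was the least variable basolateral carrier, with a coefficient of variation of 38.6% over the 12 libraries, and W_Res3 was again the highest. No difference met the standard, with 0.28 (SE 0.24, adjusted p = 0.599) and -0.07 (SE 0.38, adjusted p = 0.947) for weaning in control and resveratrol litters, the second turning to 0.15 with rescaling, and 0.59 (SE 0.37, adjusted p = 0.499) and 0.25 (SE 0.26, adjusted p = 0.764) for resveratrol in sucking and weaned piglets. The sum of SLC7A7 and SLC7A8 was 0.947 to 2.00 times SLC3A2 in W_Con and W_Res and 0.541 to 1.17 times in PW_Con and PW_Res. Any other light subunit was not counted, so that this is no full balance of SLC3A2 and its partners. PCK2, the mitochondrial form of phosphoenolpyruvate carboxykinase, was among the 3 genes most like SLC3A2 (r = 0.867), after LRRC41 (0.892).

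SLC38A2 gave the smallest P of the 10 carriers. Its levels were 3.83, 3.58 and 5.72 FPKM in W_Con, 1.68, 0.950 and 0.714 in PW_Con, 3.00, 3.50 and 1.06 in W_Res and 2.27, 1.32 and 1.49 in PW_Res. Every W_Con library lay above every PW_Con library and also above every W_Res library, and W_Res3 lay below all 3 PW_Res libraries. With weaning in control litters SLC38A2 fell by 1.35 on the log2 scale (SE 0.25, P = 0.000931, adjusted p = 0.117, two-sided exact permutation p = 0.1). SLC38A2 was the 1 carrier of 10 without overlap there, where 25.3% of all genes had none, 12.7% in the lower direction. The study lists its Ensembl identifier among the genes lower after weaning, from the same libraries, so that the 2 results are not independent. The call held without each library in turn (-1.54 to -1.18) and in the Ballgown-type model (-1.41), and with a pseudocount of 0.1 the difference was -1.93. With a minimum of 5 FPKM SLC38A2 fell below the filter and was not tested, in this or any other comparison.

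In resveratrol litters the weaning difference of SLC38A2 was -0.32 (SE 0.34, adjusted p = 0.699), with a sign that flipped under quantile normalization (0.01) and in the Ballgown-type model (0.75). The 2 weaning effects differed by 1.03 (SE 0.44, adjusted p = 0.335), the 1 carrier of 10 past the standard for this difference, where 7.76% of all genes were, 1.81% in the higher direction. That call was lost without W_Con3 (0.86), W_Res3 (0.68), PW_Con2 (0.98), PW_Con3 (0.89) or PW_Res1 (0.88) and in the Ballgown-type model (1.39). Smooth muscle (3 of 5 lower), proximal (2 of 6 higher), villus (KRT20, higher) and lymphocyte (CD79B, lower) markers met the standard in the same test, and their part in the carrier value was not tested. Over both diets SLC38A2 differed by -0.84 (SE 0.22, P = 0.00263, adjusted p = 0.111, exact permutation p within diets = 0.02), short of the fold limit. It was past the standard with a pseudocount of 0.1 (-1.18, adjusted p = 0.124) and differed by -1.01 (adjusted p = 0.0459) without W_Res3, with adjusted p of 0.0459 to 0.666 over all alternatives. Resveratrol gave -0.67 (SE 0.34, adjusted p = 0.429) in sucking piglets and 0.36 (SE 0.24, adjusted p = 0.62) in weaned piglets. Over both ages, 0 of 10 carriers met the standard for resveratrol or had an unadjusted P under 0.05 in limma, where 0.939% of all genes met it. With 1 library left out, SLC15A1 (-1.01 without PW_Con3), SLC1A1 (-1.89 without W_Res3 or PW_Res1) and SLC7A8 (1.52 without W_Con2, 1.58 without PW_Res3) met it. The gene most like SLC38A2 was NSD1, a histone methyltransferase (r = 0.883).

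Other amino acid and peptide carriers were followed as a list of 30, of which 23 were matched and 13 to 16 passed the filter in a comparison. None of them met the standard in any of the 4 pairwise comparisons in limma. At an unadjusted P under 0.05, 3 were higher and 1 lower with weaning in control litters, 1 and 1 in resveratrol litters, 1 and 0 with resveratrol in sucking piglets and 0 in weaned piglets. Of all genes, 17.7%, 13.3%, 13.3% and 10.2% passed that limit in these comparisons. SLC15A3, a peptide and histidine carrier of lysosomal membranes, was 1 of the 3. It was at 2.57, 2.25 and 3.05 FPKM in W_Con and 5.45, 6.11 and 3.77 in PW_Con, a difference of 0.74 (SE 0.21, adjusted p = 0.17). These groups did not overlap, as was so for 25.3% of all genes in that comparison. In resveratrol litters SLC15A3 was at 5.05, 6.22 and 4.21 FPKM in W_Res and 3.01, 5.56 and 3.67 in PW_Res. The difference of W_Res to W_Con was 0.76. The 2 weaning effects on SLC15A3 differed by -1.04 (SE 0.33, adjusted p = 0.256). That met the standard, as 1 of 14 listed carriers tested, where 7.76% of all genes did. SLC38A5, a glutamine carrier, differed by 0.71 with weaning over both diets (SE 0.26, adjusted p = 0.199), and SLC7A10, SLC6A6 and SLC38A1 were the carriers with the smallest P in the remaining comparisons, at -0.78 for weaning in resveratrol litters, 0.40 for resveratrol in weaned piglets and -0.39 for resveratrol over both ages.

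Of the partners and ion pumps that serve these carriers, 5 of 6 listed were measured. ATP1B1, the beta subunit of the sodium pump, was at 170, 159 and 136 FPKM in W_Con against 98.5, 32 and 46.9 in W_Res, lower by a log2 difference of -1.53 (SE 0.39, adjusted p = 0.344), as 1 of 5 where 4.47% of all genes met the standard. In that comparison 4 of 5 smooth muscle markers were higher and 3 of 7 lymphocyte markers lower, and their part in the ATP1B1 value was not tested. Over both ages ATP1B1 was lower with resveratrol, with a log2 difference of -1.14 (adjusted p = 0.248), where 0.939% of all genes met the standard, with 1 of 5 smooth muscle and 1 of 6 proximal markers higher and 3 of 8 lymphocyte, 1 of 7 villus and 1 of 5 distal markers lower. PDZK1, a scaffold protein of the brush border, was at -0.70 for weaning in control litters (adjusted p = 0.225), NHERF1, another scaffold, at 0.84 for weaning over both diets (adjusted p = 0.224) and CLTRN, a membrane protein of the collectrin family, at 0.43 for resveratrol in weaned piglets (adjusted p = 0.53). None of these 3 values met the standard.

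All 6 cytosolic peptidases listed were measured, and 0 of 6 met the standard in any comparison in limma. At an unadjusted P under 0.05, XPNPEP1, an aminopeptidase that cuts before proline, was at -0.51 for weaning in control litters, as 1 of 6 where 17.7% of all genes passed that limit, and DPP3, a dipeptidyl peptidase, at 0.43 over both diets, as 1 of 6 where 19.0% did. Of the amino acid response genes, which cells switch on when amino acids run short, 10 of 15 listed were measured. PHGDH, the first enzyme of serine synthesis, was at 0.889, 0.902 and 0.699 FPKM in W_Con and 17.8, 27.4 and 3.8 in PW_Con, and rose by 2.91 (SE 0.60, adjusted p = 0.117). ASNS, asparagine synthetase, rose by 1.38 in the same comparison (SE 0.38, adjusted p = 0.161). These 2 of 10 met the standard there, where 3.31% of all genes did, and over both diets, at 2.14 and 1.11, where 1.42% did. Among the tissue markers past the standard in control litters, S100G and SLC40A1 (proximal) were lower and SLC51A (distal) and CD79B (lymphocyte) higher. Over both diets MYLK (smooth muscle) was lower past it at -1.03 and SLC40A1 at -1.33. The part of these markers in the PHGDH and ASNS values was not tested. TRIB3, a pseudokinase induced by amino acid shortage, fell by 1.06 with resveratrol in sucking piglets, rose by 1.10 with weaning in resveratrol litters and had weaning effects that differed between diets by 1.42 (SE 0.46, adjusted p = 0.262). It was the 1 of 10 past the standard in each of these comparisons, where 4.47%, 4.75% and 7.76% of all genes were. Smooth muscle markers met the standard in the same comparisons, 4 of 5 higher, 5 of 5 lower and 3 of 5 lower, and their part in the TRIB3 values was not tested. SESN2 differed by 0.64 with resveratrol over both ages (adjusted p = 0.153), short of the fold limit.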

How the data were processed

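RNA-seq of jejunum covered 12 libraries in 4 groups of 3, grouped by their titles. The deposited table gives FPKM per locus, estimated by the authors with StringTie and Ballgown after alignment with TopHat, per the study's methods. The submitters' notes list HISAT2 2.0, StringTie 1.3.0, Bowtie 0.12.2 and the builds Sscrofa10.2 and mm8. The study reports multi-mapped reads and reads per strand for the control libraries, while how multi-mapped reads were assigned to genes is not given in the sources used here, so that close paralogs could share reads.

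Of 41264 loci, 17650 (42.8%) had no gene name and were left out (5.48% to 8.47% of summed FPKM), and loci were summed by name. Values were compared as log2(FPKM + 1) with limma 3.58.1 in R 4.3.3 (lmFit, eBayes with trend) over genes whose mean in the fitted libraries reached 0.5 FPKM, and the method was tested on simulated data. Only the groups compared entered a pairwise fit, and all 12 libraries the other 3 comparisons. The 10 carriers and all lists were chosen with earlier results of these data known. All 10 carriers are named, together with, from each other list, up to 5 genes past the standard per comparison or otherwise the gene with the smallest P, and the 3 genes most alike by Pearson's r over 12 libraries. Correlations used 100000 permutations. Alternatives were a pseudocount of 0.1, no filter or a minimum of 5 FPKM, median-of-ratios and quantile scaling, no trend, a replicate block, the strongest locus in place of the sum, a Ballgown-type model with the 75th-percentile library term, all libraries in pairwise fits and leaving out each library. Marker lists covered villus, crypt, smooth muscle, lymphocyte, proximal and distal genes. One gene of the partner list is not reported here.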

Additional observations from a re-analysis of the deposited data

Results flagged for a closer look

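The weaning effect on SLC38A2 differed between the diets by 1.03 on the log2 scale (SE 0.44, limma interaction test, adjusted p = 0.335). The 3 W_Con libraries lay above the 3 PW_Con libraries, and the W_Res and PW_Res libraries overlapped. The difference missed the standard in the Ballgown-type model (1.39) and without W_Con3, W_Res3, PW_Con2, PW_Con3 or PW_Res1 (0.68 to 0.98). Of the other genes named from the lists, the same test met the standard for SLC15A3 at -1.04 and TRIB3 at 1.42, with adjusted p of 0.256 and 0.262. Of the tissue markers it did so for KRT20 (villus) at 1.17, DES, CNN1 and TAGLN (smooth muscle) at -3.27, -2.82 and -2.77, CD79B (lymphocyte) at -2.33, and S100G and SLC46A1 (proximal) at 3.97 and 2.25, with adjusted p of 0.251 to 0.34. Of all 12886 genes tested for this difference, 7.76% met the standard, and 0 had an adjusted p under 0.05, while 1770 had an unadjusted P under 0.05.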

How the results depend on the processing

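Under the alternatives that keep all libraries, 635 values of single carriers had the same direction and call as reported, 16 turned sign, 9 lost a call and 3 gained one. With 1 library left out, 510 were the same, 47 turned sign, 17 lost a call and 26 gained one. With a pseudocount of 0.1 the genes past the standard numbered 853 (418 as reported) for weaning in control litters, 1163 (618) for weaning in resveratrol litters, 1008 (590) for resveratrol in sucking piglets, 488 (224) for resveratrol in weaned piglets, 591 (183) for weaning over both diets and 379 (121) for resveratrol over both ages. With a minimum of 5 FPKM, which tests fewer genes, they numbered 227, 245, 248, 122, 118 and 76 in the same order, and 364 (1000 as reported) for the difference of the weaning effect between diets. In the Ballgown-type model they numbered 257 for weaning in resveratrol litters, 201 for resveratrol in sucking piglets and 318 for the difference. The causes of these shifts and of those below were not tested.

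In the Ballgown-type model 6 of the 7 calls were lost, at 1.23 for SLC1A5 (weaning, control litters), 0.61 for SLC15A1 and 0.23 for SLC6A19 (weaning, resveratrol litters), -0.58 for SLC15A1 and 1.94 for SLC7A8 (resveratrol, sucking piglets) and 1.39 for SLC38A2 (difference). SLC15A1 at weaning in resveratrol litters was also lost with quantile normalization (0.99) and with all 12 libraries fitted (1.08). Signs turned in the Ballgown-type model for SLC7A8 (0.23, weaning in control litters), for SLC1A5 (-0.041), SLC3A1 (-0.65) and SLC38A2 (0.75) at weaning in resveratrol litters, for SLC6A19 (0.29), SLC1A5 (-0.33) and SLC3A1 (0.37) with resveratrol in sucking piglets, for SLC1A1 in weaned piglets (1.66) and for SLC15A1 (-0.51) and SLC3A2 (-0.24) over both diets. With median-of-ratios rescaling they turned for SLC7A8 (0.0092, weaning in control litters), SLC3A2 (0.15, weaning in resveratrol litters), SLC7A9 (0.0062, both diets) and SLC7A7 (0.15, difference), with quantile normalization for SLC38A2 (0.014, weaning in resveratrol litters), and with a pseudocount of 0.1 for SLC7A8 (0.053, weaning in control litters).

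Whether equal replicate numbers mark related piglets is not stated. Deviations of same-numbered libraries from their group means correlated at -0.257 to 0.303 and over 0.1 in 5 of 18 pairs. Those of differently numbered libraries correlated at -0.271 to 0.36. These values cannot say whether libraries share a litter. With a replicate block, 444, 633, 631, 258, 188, 125 and 1059 genes met the standard in the 7 comparisons. SLC7A8 with resveratrol in sucking piglets (2.24) was no longer past it with the block, and SLC1A1 at weaning in control litters (-1.02) was.

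Leaving out each library in turn, the genes past the standard ranged from 380 to 550 (weaning, control litters), 388 to 1049 (weaning, resveratrol litters), 394 to 944 (resveratrol, sucking piglets), 222 to 426 (resveratrol, weaned piglets) and 633 to 1367 (difference). Counts more than 1.5 times apart from those reported came without W_Res1 (1049), W_Res2 (388) or W_Res3 (928) at weaning in resveratrol litters, without W_Res1 (896) or W_Res3 (944) in sucking piglets, without PW_Res1 (426) in weaned piglets and without W_Con3 (633) for the difference. The carriers that lost a call or turned sign ranged, at weaning in control litters, from 0.65 to 1.40 for SLC1A5, -0.32 to 0.75 for SLC3A1 and -0.77 to 0.62 for SLC7A8. At weaning in resveratrol litters they ranged from 0.77 to 1.47 for SLC15A1, 0.86 to 1.56 for SLC6A19, -1.62 to 0.83 for SLC1A1, -0.35 to 0.33 for SLC1A5, -0.35 to 0.35 for SLC3A2 and -0.93 to 0.053 for SLC7A7. With resveratrol in sucking piglets the ranges were 1.48 to 2.87 for SLC7A8, -0.028 to 0.52 for SLC1A5, -0.96 to 0.46 for SLC3A1 and -0.33 to 0.66 for SLC7A7. In weaned piglets they were -0.46 to 1.00 for SLC15A1, -0.16 to 0.50 for SLC7A7 and -0.71 to 0.92 for SLC7A8. Over both diets they were -0.20 to 0.53 for SLC15A1, -0.036 to 0.31 for SLC3A2 and -0.30 to 0.20 for SLC7A9. Over both ages they were -0.26 to 0.020 for SLC38A2, -0.043 to 0.67 for SLC3A1, -0.12 to 0.23 for SLC6A19 and -0.062 to 0.43 for SLC7A7. For the difference between diets they were 0.68 to 1.25 for SLC38A2, -0.60 to 1.85 for SLC1A1, -0.62 to 0.074 for SLC3A2 and -0.45 to 0.53 for SLC7A7. The carriers that gained a call ranged, at weaning in control litters, from -1.59 to -0.52 for SLC1A1 and -1.25 to -0.26 for SLC7A9, and in resveratrol litters from -2.96 to -1.33 for SLC7A8, 0.52 to 1.94 for SLC3A1 and 0.29 to 1.17 for SLC7A9. With resveratrol they ranged from -2.82 to -0.56 for SLC1A1 in sucking piglets, and in weaned piglets from -2.19 to -0.063 for SLC1A1, -1.18 to -0.31 for SLC1A5 and 0.47 to 1.46 for SLC7A9. Over both diets SLC38A2 ranged from -1.01 to -0.73 and SLC7A8 from -1.49 to -0.67, and over both ages SLC15A1 from -1.01 to -0.28, SLC1A1 from -1.89 to -0.76 and SLC7A8 from 0.76 to 1.58. For the difference SLC15A1 ranged from 1.10 to 2.55, SLC6A19 from 0.42 to 1.25, SLC1A5 from -1.43 to -0.56, SLC7A8 from -2.95 to -1.31 and SLC7A9 from 0.91 to 2.04. A fit without a library leaves 2 in its group, and the table holds no read counts.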
